A study of Mus musculus with 115 samples.

Results

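Dentate granule cells without EGFP, sampled after kainic acid (KA, an agonist of glutamate receptors used to provoke seizures), fall into a low and a high range of title numbers. The libraries come from patch-pipette RNA sequencing, in which the cytosol of 1 cell is drawn into a recording pipette and sequenced. All columns of the quality-passed count table labelled kainic acid and EGFP- cells were taken, which gave 36 of the 95 cells in that table and of the 115 cells in the labels. The first title series (numbers M1 to M48) held 21 of them and the second (M201 to M272) held 15. For comparison the KA EGFP+ cells numbered 24 in the first title series against 3 in the second, and the saline EGFP- cells, all in the second title series, gave 27.

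All groups came from Rbp4-Cre mice. A retrograde AAV carrying EGFP was placed in the right ventral hippocampus, so that EGFP+ cells are those whose axon reached the other side, and EGFP- cells carried no such label. KA or saline was given in the left hippocampus together with AAV.cDIO-mCherry, a virus whose mCherry depends on Cre, and cells were taken on that side 2 weeks later, with or without mCherry. By label the KA EGFP- cells of both title series share genotype, viruses, drug, EGFP class and interval. The study states 3 mice for the KA EGFP- cells, and no label gives the mouse, sex or age of a cell or says what the title numbers stand for. Each title series is thus 1 sample of unknown mice, no test between them was possible, and mouse, preparation and library complexity cannot be told apart.

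Granule cells are the excitatory cells of the dentate gyrus and send mossy fibres to hilus and CA3. Strong activity is known to switch on transcription factors, growth factors and neuropeptide genes in them, among these the precursors of enkephalin, CART and neuropeptide Y. Neuropeptide precursors are packed into dense-core vesicles with granins and cut by convertases before release. Single-cell libraries can also differ in how many distinct transcripts were caught, which moves the apparent level of most genes at once.

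The quality labels sat 1 title early against the table, and some libraries stood apart. The labels called 2 of the 21 first-series cells and 4 of the 15 second-series cells failed although the table kept them, and 2 KA EGFP- cells labelled passed were not in it. In title order, each title of the series missing from the table directly followed a title labelled failed. Each failed label except that of the last title came directly before a missing title. Whether the treatment and EGFP labels are displaced in the same way was not tested. The title directly before was also KA EGFP- for 15 first-series and 12 second-series cells, so these keep their class if those labels are off by 1 title. The cell with title M48 had 2411 genes after thinning and a Penk level of 0.27, the lowest of the first series on both measures. In the second series the cells with titles M209 and M214 had 5.68% and 4.78% of their counts in microglia markers. For some results, values are given without title M48, without all second-series cells rich in microglia markers, or with only cells labelled passed. The last of these settings picks cells by the displaced labels, so it is not a check of quality.

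First-series libraries held many more genes, both as deposited and at equal counts. Counts per cell ran from 2938404 over a median of 6024055 to 56183007 in the first series, and from 1747042 over 3271137 to 10295504 in the second. Genes with a count ran from 3107 over 6974 to 9509 in the first series and from 1469 over 3707 to 5720 in the second. After thinning, that is drawing 1000000 counts from each cell at random, they ran from 2411 over 6352 to 8747 in the first series and from 1387 over 3298 to 5073 in the second. The ranges overlapped, with 4 first-series and 12 second-series cells inside the span that both covered. These are called cells with like gene numbers below, although their medians of 4781.5 and 3364.5 thinned genes still differed.

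Both runs of the first series lay above all runs of the second by their medians. Median thinned gene numbers were 7514.5 for titles M20 to M33 (10 cells), 5855 for titles M35 to M48 (11 cells), 3266 for titles M209 to M216 (8 cells), 3146.5 for titles M237 and M238 (2 cells) and 3713 for titles M267 to M272 (5 cells). The KA EGFP+ cells had medians of 5864 in the first series and 3801 in the second, and the saline EGFP- cells 4222. The share of counts in the 100 most abundant genes of a cell had a median of 20.6% in the first series and 21.7% in the second. Over genes, the correlation of log2 levels between 2 cells had a median of 0.32 within the first series, 0.17 within the second and 0.21 between them, given as a description of cells that also share depth and gene number. Title M48 had a median of 0.25 with the other first-series cells and 0.19 with second-series cells.

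**Figure D1:**
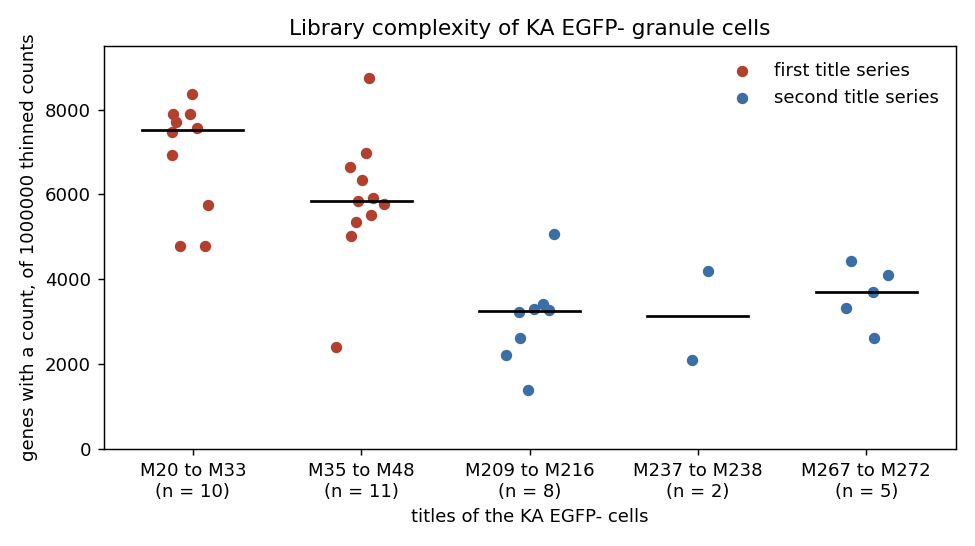
Genes with a count after thinning each KA EGFP- cell to 1000000 counts, by run of title numbers; points are cells and lines are medians. The 2 runs of the first title series have medians of 7514.5 and 5855 genes, against 3146.5 to 3713 in the 3 runs of the second.

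Most genes were counted in more cells of the first series, while the mean CPM of the median gene was close in both. Expression is given per cell as the log2 level, log2(CPM + 1), where CPM is counts per 1000000 counts of the cell, and a difference is the mean level of the first series minus that of the second. A gene was measured if at least 9 of the 36 cells had a count and its mean level was at least 1, which left 8666 genes. Both series were pooled for this filter, so a sparse gene could pass through the cells of 1 series, which sets its sign. The median difference was 1.73 (quartiles 0.92 and 2.59), with 7956 genes (91.8%) above 0, and 1.73 after thinning. The median gene had a thinned count in 66.7% of first-series and 26.7% of second-series cells, yet the median log2 ratio of mean CPM was only 0.11.

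A gene was called when its difference reached 2 in size, the log2 ratio of mean CPM + 1 reached 1 in the same direction and thinning kept the sign. By this rule 1671 of the measured genes (19.3%) were called higher and 22 (0.254%) lower in the first series, as a description with no error rate. After subtracting the median of all measured genes, 446 (5.15%) were higher and 420 (4.85%) lower by at least 2. The difference also depended on the level, with a median of 1.15 for genes at levels of 1 to 2 and 2.46 at levels of 5 to 6. A trend-relative difference was therefore added, the difference minus the running median over the 100 genes on either side by level. With it 293 genes (3.38%) were at least 2 above and 355 (4.1%) at least 2 below the trend, while counts of called members in the lists that follow are to be read against the 19.3% and 0.254% above.

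**Figure D2:**
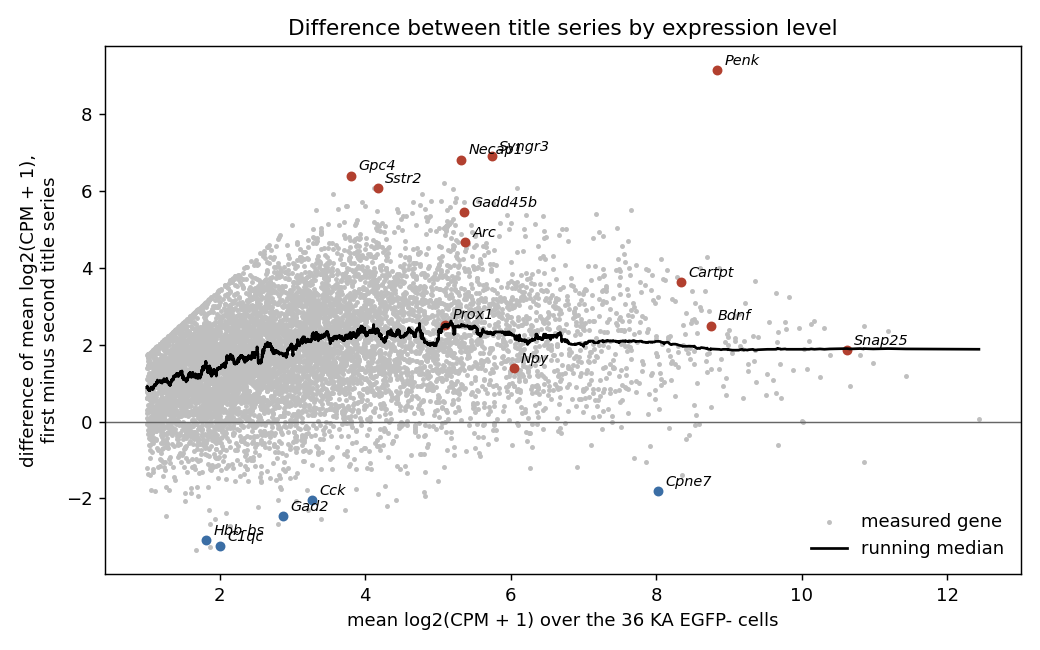
Difference of mean log2(CPM + 1), first minus second title series, against the mean level over the 36 KA EGFP- cells, 1 point per measured gene; the black line is that running median. Penk stands at 9.16, farther above the line than any other gene, while Cpne7, Gad2 and the microglial gene C1qc lie below 0.

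The granule cell label was checked against its markers. Prox1, the transcription factor that defines granule cell identity, had levels from 0 over a median of 7.85 to 9.56 in the first series and from 0 over 0 to 10.31 in the second. It had a thinned count in 16 of 21 first-series and 7 of 15 second-series cells, with medians of 8.0 and 8.97 among those cells. Its difference of 2.53 lay on the level trend. Calb1, the calcium buffer calbindin, had a thinned count in 17 of 21 first-series cells and 9 of 15 second-series cells, with a difference of 0.92 (trend-relative -1.33). C1ql2, a synaptic organiser of mossy fibres, had a thinned count in 8 of 21 first-series and 2 of 15 second-series cells, against 26 of 27 saline EGFP- cells. Stxbp6, a syntaxin-binding protein, had a thinned count in 6 of 21 first-series cells, 0 of 15 second-series cells and 20 of 27 saline EGFP- cells.

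Of the 20 granule cell markers 12 were measured and all 12 differences were positive, 2 of them called, with a median of 1.72 against 1.73 for all measured genes. The trend-relative median was -0.36. Markers of other neurons were sparse: 3 of 11 mossy cell markers, 6 of 12 CA3 markers and 1 of 10 CA1 markers were measured. None of them had a negative difference, but sparse genes could pass the filter through first-series cells, so this sign carries little weight. Ajap1, a mossy cell marker, had a thinned count in 8 of 21 first-series and 0 of 15 second-series cells. The mossy cell markers had a median of 2.91 (trend-relative 1.24) with 2 called higher, against 19.3% of all genes. Ociad2, a member of that list, had a thinned count in 15 of 21 first-series and 1 of 15 second-series cells. The CA3 markers had a median of 1.47 (trend-relative -0.20) with 1 called higher. Wfs1, the CA1 marker, was called higher at 2.14 (trend-relative 0.95), with a thinned count in 9 of 21 first-series and 1 of 15 second-series cells. Slc17a7, a vesicular glutamate transporter, had a thinned count in 21 of 21 first-series and 13 of 15 second-series cells.

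Penk, which encodes the precursor of the enkephalins, had the largest difference of mean log2 level of all measured genes, although other genes, Gpc4 (7.92) and Tax1bp1 (7.80) among them, had a larger log2 ratio of mean CPM. It lies on chromosome 4 (GRCm38 4133531 to 4138819, minus strand, ENSMUSG00000045573.9). Its level ran from 0.27 over a median of 13.46 to 15.19 in the first series and from 0 over 0 to 11.95 in the second. In the first series titles M28 and M47 had 9.67 and 9.91, title M48 had 0.27 and each of the other cells had at least 11.68. In the second series 8 of the 15 cells were at 0, and title M210 alone exceeded 8.48. Title M210 lay above the first-series titles M28, M39, M47 and M48, and each other second-series cell lay below every first-series cell except title M48.

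The mean Penk level was 12.65 ± 3.25 in the first series (SD, 21 cells) and 3.49 ± 4.21 in the second (SD, 15 cells), a difference of 9.16 and a trend-relative difference of 7.27. A thinned count was found in 20 of 21 first-series cells (95.2%, Clopper-Pearson 95% interval 76.2 to 99.9%) and in 7 of 15 second-series cells (46.7%, 21.3 to 73.4%). Among cells with a thinned count the median level was 13.49 in the first series and 7.36 in the second, so the level differed among detecting cells as well as the share of cells. Saline EGFP- cells had a mean of 0.96 ± 2.69 (SD, 27 cells), with a thinned count in 4 of 27 cells.

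Mean CPM of Penk was 14777 in the first series and 331 in the second, a log2 ratio of 5.47. Pooled over cells it was 20389 CPM (exact 95% Poisson interval 20370 to 20409) in the first series and 455 CPM (450 to 461) in the second. These intervals cover counting error only. Title M33, with 56183007 counts and a Penk level of 15.15, weighed most in the pooled first-series value. Among the 4 first-series and 12 second-series cells inside the shared span of gene numbers the difference was 5.28 (trend-relative 4.39). Their median thinned gene numbers still were 4781.5 and 3364.5, and the first-series cells included title M48 with its Penk level of 0.27. Without title M48 the difference over all other cells was 9.78. With only cells labelled passed, which is no check of quality given the displaced labels, the difference was 9.66. Without the 6 second-series cells rich in microglia markers it was 8.54, and with cells whose preceding title was also KA EGFP- it was 9.75. Penk shares exon bases with A830012C17Rik, and whether counting used strand is not given in the sources used here.

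**Figure D3:**
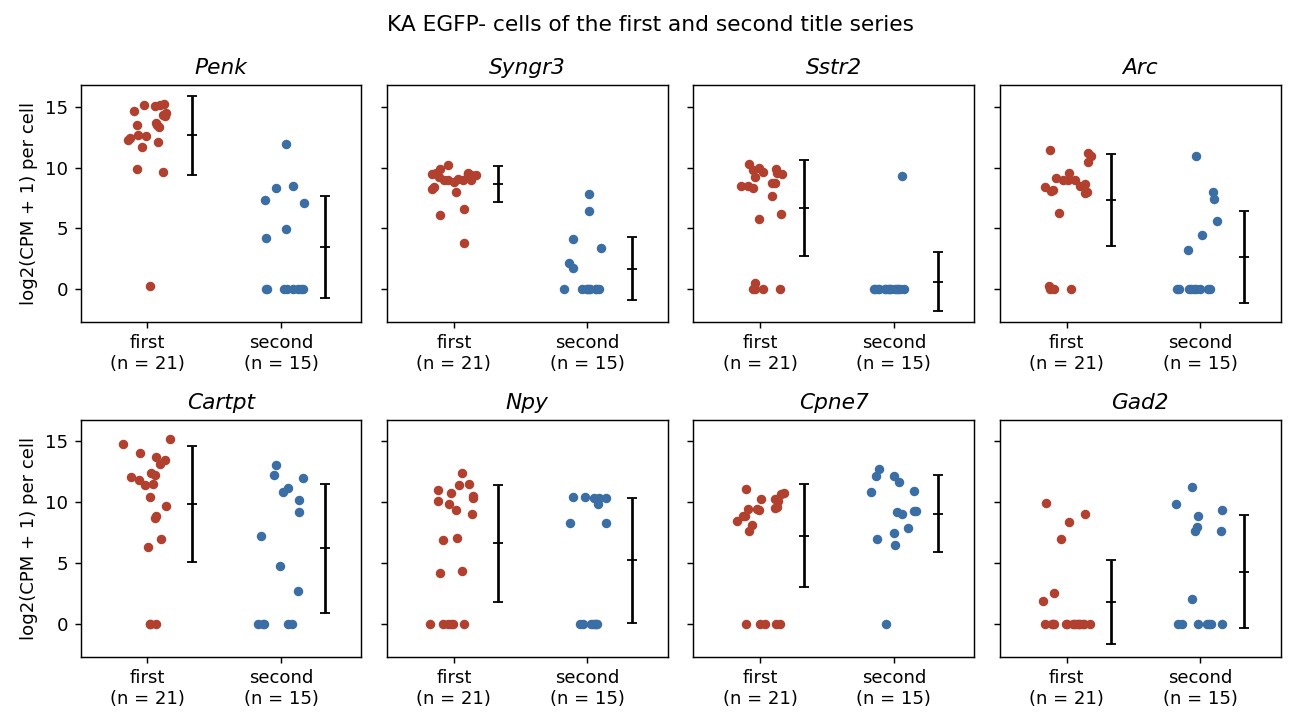
Log2(CPM + 1) of 8 genes in each KA EGFP- cell of the first (21 cells, left) and second (15 cells, right) title series; black bars are mean ± SD over cells. Penk differs in the level of the detecting cells too (medians 13.49 and 7.36), whereas Npy has medians of 10.14 and 10.34 and Cpne7 of 9.51 and 9.30 in the cells that have them.

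Cartpt and Npy, both neuropeptide genes of active granule cells, differed less than Penk. Cartpt, the precursor of CART peptides, ran from 0 over 11.46 to 15.22 in the first series and from 0 over 7.21 to 13.04 in the second. It averaged 9.85 ± 4.75 in the first series and 6.22 ± 5.32 in the second (SD, 21 and 15 cells), a called difference of 3.62 that was 1.64 above the trend. A thinned count was found in 18 of 21 first-series and 10 of 15 second-series cells, and those cells had medians of 11.94 and 10.50. Its mean in saline EGFP- cells was 0.66.

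Npy, the precursor of neuropeptide Y, ran from 0 over 9.05 to 12.42 in the first series and from 0 over 8.26 to 10.44 in the second. Its difference of 1.40 was below the trend (trend-relative -0.85) and was not called. Cells with a thinned count, 15 of 21 in the first series and 8 of 15 in the second, had medians of 10.14 and 10.34. The saline EGFP- mean was 0.23. In the first series 6 of 21 cells lay above the highest second-series cell, and the other cells overlapped.

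The promoters of these peptide genes are shown because Cartpt was called and Npy was not. Each is the stretch from 250 bases before to 50 after the start of the gene, from RefSeq on GRCm38.p6, 5′ to 3′ on the strand of the gene. Capitals mark a full cyclic AMP response element with the letters TGACGTCA, which reads the same on both strands and holds the core TGACG on each of them. The Cartpt promoter is chr13:99900634-99900933 on the minus strand and the Npy promoter is chr6:49822460-49822759 on the plus strand.
Cartpt: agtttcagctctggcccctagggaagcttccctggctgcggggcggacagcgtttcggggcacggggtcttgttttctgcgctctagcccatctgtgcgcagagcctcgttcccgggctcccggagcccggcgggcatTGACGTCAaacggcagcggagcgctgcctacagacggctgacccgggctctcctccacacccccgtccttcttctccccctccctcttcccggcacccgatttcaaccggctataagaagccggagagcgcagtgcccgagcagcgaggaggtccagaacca
Npy: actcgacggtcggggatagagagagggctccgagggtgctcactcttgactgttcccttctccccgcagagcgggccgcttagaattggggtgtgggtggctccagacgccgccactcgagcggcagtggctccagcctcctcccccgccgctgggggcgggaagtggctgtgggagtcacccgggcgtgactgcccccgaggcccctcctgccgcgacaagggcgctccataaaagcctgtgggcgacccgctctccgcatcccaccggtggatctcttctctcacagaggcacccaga

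The Cartpt promoter held 1 full element and the Npy promoter held neither the full element nor the core in this window. Of 32851 mouse promoters of the same length, 588 (1.79%) held the full element and 6837 (20.8%) the core on either strand. A match describes the letters only. Relative to the trend neither Cartpt nor Npy was called, and the part of the element in their differences was not tested. Penk, Arc, Cpne7 and Syngr3 are named here without promoter sequence.

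Of 30 seizure-regulated peptides and secreted factors, 20 were measured, with 7 called higher and 1 lower (background 19.3% and 0.254%). The median difference was 2.90, and 0.95 relative to the trend. Bdnf, a neurotrophin, ran from 8.05 over 10.05 to 11.33 in the first series and from 0 over 8.36 to 11.96 in the second, a difference of 2.50 that was not called (log2 ratio of mean CPM 0.45). Chga, a granin of dense-core vesicles, differed by 3.82 without a call, since the log2 ratio of mean CPM was 0.68. It had a thinned count in 21 of 21 first-series and 9 of 15 second-series cells, with medians of 9.57 and 9.33 among them. Inhba, an activin subunit, differed by 3.70 and Gal, the galanin precursor, by 2.91, both called.

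Sorcs3, a sorting receptor of the VPS10 family, had a difference of 2.66, near the trend, with a mean of 0.45 in saline EGFP- cells. Cck, the cholecystokinin precursor, was the called lower member at -2.05. It ran from 0 over 0 to 10.09 in the first series and from 0 over 5.83 to 10.09 in the second, with a thinned count in 7 of 21 and 8 of 15 cells. Its sign turned to 0.19 without titles M209 to M216, to 0.43 among cells with like gene numbers and to 0.59 without titles M35 to M48.

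Of the 12 called genes with the largest positive differences, 11 followed Penk between 5.81 and 6.91. Syngr3, a synaptic vesicle membrane protein, ran from 3.81 over 9.02 to 10.23 in the first series and from 0 over 0 to 7.83 in the second. Its mean was 8.62 ± 1.48 in the first series and 1.71 ± 2.60 in the second (SD, 21 and 15 cells), a difference of 6.91 (trend-relative 4.61). Titles M213, M237 and M269 of the second series, at 4.10, 6.45 and 7.83, lay above the lowest first-series cell, title M42. Syngr3 had a thinned count in 20 of 27 saline EGFP- cells.

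Necap1, an endocytic adaptor, had a thinned count in 21 of 21 first-series and 3 of 15 second-series cells, with a difference of 6.82. Its medians among those cells were 8.04 in the first series and 7.54 in the second. Syt5, a synaptotagmin, had a thinned count in 21 of 21 first-series and 7 of 15 second-series cells and differed by 6.09. Gpc4, a heparan sulfate proteoglycan of the cell surface, had a thinned count in 18 of 21 first-series cells and in 0 of 15 second-series cells, which allows a share of cells with a thinned count of up to 21.8% (Clopper-Pearson 95% interval). Before thinning 19 first-series and 2 second-series cells had a count. It had a mean CPM of 255.4 in the first series and 0.0597 in the second.

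Sstr2, a receptor for somatostatin, ran from 0 over 8.51 to 10.31 in the first series and from 0 over 0 to 9.33 in the second. It had a thinned count in 17 of 21 first-series cells and in 1 of 15 second-series cells, title M269, against 3 of 27 saline EGFP- cells. Slc1a1, a neuronal glutamate transporter, likewise had a thinned count in 19 of 21 first-series cells and 1 of 15 second-series cells (8.59), with 11 of 27 in saline. The others were Pafah1b2, Dab1, Lrpprc, Tax1bp1 and Rnf14, each with a thinned count in at most 4 of 15 second-series cells. Dab1, the reelin adaptor, differed by 6.06 and Lrpprc, a mitochondrial RNA-binding protein, by 5.92.

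Immediate early genes, which neurons transcribe soon after activity, lay a little above the trend. Of 30 listed genes 28 were measured and 27 differences were positive, with 6 called higher and 0 lower (19.3% and 0.254% of all genes). The median difference was 2.60 and 0.58 relative to the trend. The called members were Gadd45b (5.46), Dusp6 (4.93), Arc (4.67), Jun (4.29), Egr1 (3.08) and Rheb (2.67).

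Arc, a synaptic plasticity protein that forms capsid-like assemblies, ran from 0 over 8.50 to 11.40 in the first series and from 0 over 0 to 10.95 in the second. It had a thinned count in 17 of 21 first-series, 6 of 15 second-series and 23 of 27 saline EGFP- cells, with means of 7.32, 2.65 and 6.99 in these groups. Fos, a subunit of the AP-1 factor, differed by 3.44 without a call. Its medians among cells with a thinned count were 9.51 in the first series and 9.60 in the second. Egr4 differed by 1.6 and Nr4a2 by 1.32, both below the trend. Fos averaged 8.70 in the first series, 5.26 in the second and 9.81 in saline EGFP- cells. Egr4 averaged 6.84, 5.24 and 9.90 in these groups and Nr4a2 3.89, 2.58 and 6.63. Fosb, whose stable product accumulates after repeated activity, differed by 0.33 (trend-relative -1.89), and Klf4 by -0.59.

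Receptors for GABA and for glutamate lay on different sides of the trend. Of 17 GABA receptor and scaffold genes 14 were measured, all with positive differences, 3 of them called (19.3% of all genes were called higher), with a median of 3.07 and 0.82 above the trend. Gabra2 differed by 4.05, and Gabrb2, another subunit, by 3.83 with a thinned count in 14 of 21 first-series and 0 of 15 second-series cells. Gabra5, a subunit of extrasynaptic receptors, differed by 0.68 (trend-relative -1.81). Of 30 glutamate receptor genes 18 were measured, 0 were called and the median was 1.62, which was 0.39 below the trend (-0.39). Gria4, an AMPA receptor subunit, had the largest difference at 3.87, and Grm5, a metabotropic receptor, the smallest at 0.49.

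Channel genes spread widely. Among 32 measured potassium and HCN channel genes 6 were called higher and 1 lower, against 19.3% and 0.254% of all genes, with a median of 1.85. Kcna1, a voltage-gated potassium channel subunit, ran from 0 over 7.83 to 9.26 in the first series and from 0 over 0 to 6.28 in the second, a difference of 5.37 (trend-relative 3.15). Its mean CPM was 271.2 in the first series and 9.32 in the second. Kcnt2, a sodium-activated potassium channel, was the called lower member at -2.47, with a thinned count in 3 of 21 first-series and 6 of 15 second-series cells. Among 27 measured sodium and calcium channel genes the median was 1.22, with 4 called higher, Cacng3 at 4.48 the largest. Cacna1a, the pore of P/Q-type calcium channels, was at -1.17 (trend-relative -3.42) and had thinned counts in 17 of 21 first-series and 11 of 15 second-series cells.

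Presynaptic genes had a median on the level trend. Of 30 measured vesicle and release genes 11 were called higher (19.3% of all genes were), with a median of 1.97 and -0.02 relative to the trend. Snap25, a SNARE protein chosen after its values were seen, ran from 10.50 over 11.56 to 12.22 in the first series and from 2.32 over 10.19 to 12.67 in the second, a difference of 1.85. Syn2 (synapsin II) at 5.74 and Syt5 at 6.09 were the largest in the list, and Sncb (beta-synuclein) at -1.35 the smallest. Of 48 measured synaptic adhesion genes 11 were called higher, with a median of 1.96, Nlgn3 the largest at 4.65. Cadherins and protocadherins, which mediate adhesion between neurons, had a median of 2.78 and 0.64 above the trend, with 7 of 25 called higher; the C-type gamma genes Pcdhgc3 and Pcdhgc5 differed by 5.09 and 4.90 and share their constant exons, so their reads may be split between them.

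Matrix and guidance genes gave medians near or below that of all genes. Of 19 measured extracellular matrix genes 5 were called higher (median 1.88). Acan, the perineuronal net proteoglycan aggrecan, had a difference of 2.43 without a call, with a thinned count in 15 of 21 first-series, 4 of 15 second-series and 0 of 27 saline EGFP- cells. Of 35 measured axon guidance genes 9 were called higher (median 1.16, trend-relative -0.73), Efna5, an ephrin ligand, at 4.75 the largest and Robo3, a guidance receptor, at -0.70 the smallest. Id2, a helix-loop-helix inhibitor, differed by 2.95 and Rbp4, whose regulatory sequences drive the Cre of these mice, by 1.17, neither called.

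The shares called in the metabolic lists are set against 19.3% of all genes called higher. Glycolysis genes had a median of 2.72 (0.70 above the trend) with 8 of 20 called higher, among them Eno1 (3.81), Slc2a3 (3.92), a neuronal glucose transporter, and Pfkfb3 (4.22). Nuclear oxidative phosphorylation genes had a median of 1.93 with 6 of 59 called, and heat shock and folding genes 2.42 with 5 of 23 called. Mitochondrially encoded mRNAs had a median of 1.06 (trend-relative -0.83) with 0 of 11 called, and mt-Co1 had a difference of 0.01. Cholesterol synthesis genes had a median of 1.54 with 3 of 19 called. Cytosolic ribosomal protein genes had a median of 1.83 with 17 of 75 called, and growth-associated genes 2.08 with 5 of 28 called. The shares of the ribosomal, heat shock, growth-associated and cholesterol lists lay near the share of all genes.

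**Figure D4:**
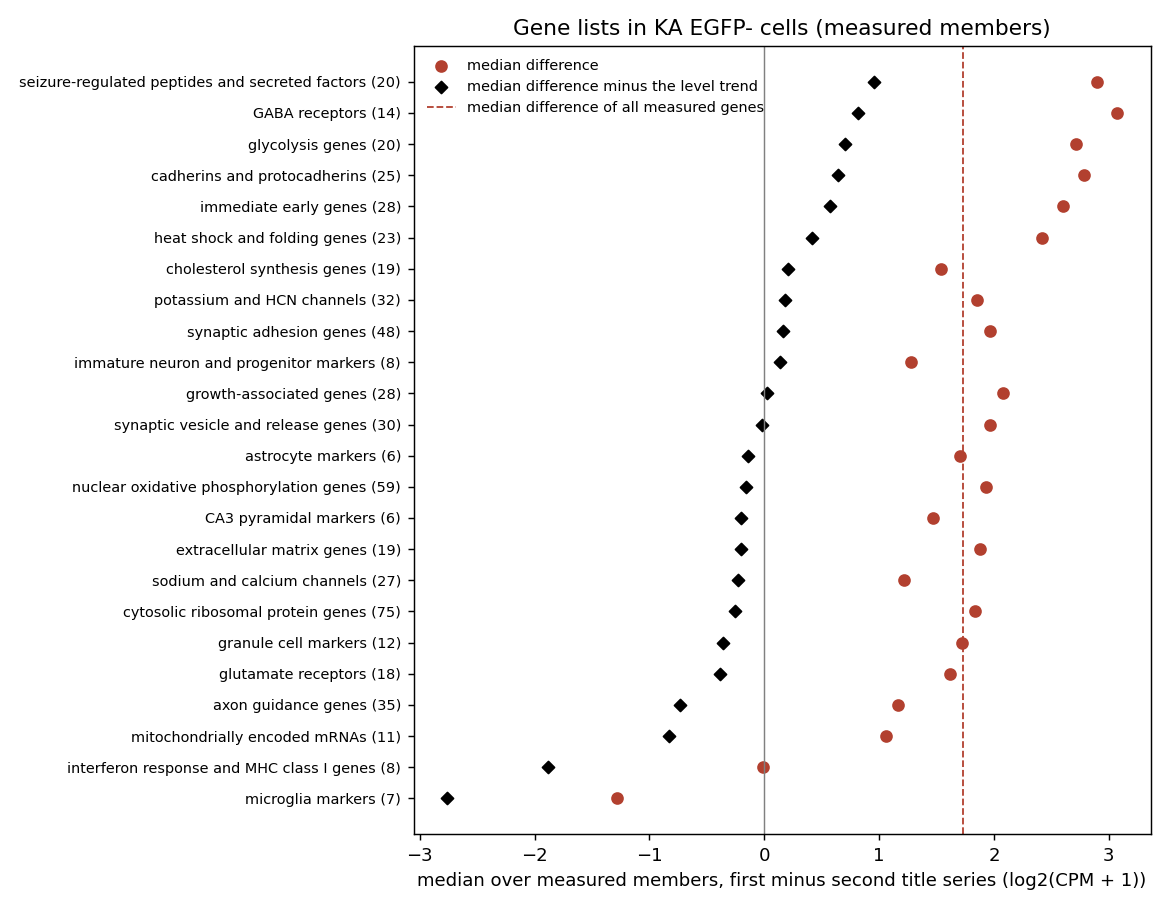
Median difference of each gene list with at least 5 measured members (number in parentheses), first minus second title series in log2(CPM + 1), as it stands (circles) and minus the level trend (diamonds); the dashed line is the median of all measured genes, 1.73. Seizure-regulated peptides, GABA receptors and glycolysis genes lie 0.70 to 0.95 above the trend, and microglia markers lie lowest.

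Some genes lay below the trend although they were counted in most cells of both series. Cpne7, a calcium-dependent membrane-binding copine, ran from 0 over 9.34 to 11.09 in the first series and from 0 over 9.30 to 12.77 in the second. It averaged 7.27 ± 4.25 in the first series and 9.08 ± 3.20 in the second (SD, 21 and 15 cells), a difference of -1.81 that was not called and was -3.90 relative to the trend. A thinned count was found in 16 of 21 first-series and 14 of 15 second-series cells, with medians of 9.51 and 9.30 among them. The first-series cells at 0 were titles M37, M39, M40, M41 and M48. The saline EGFP- mean was 0.64, with a count in 3 of 27 cells.

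Gad2, a GABA-synthesising enzyme, ran from 0 over 0 to 9.94 in the first series and from 0 over 2.02 to 11.27 in the second. It was called lower at -2.47, with thinned counts in 6 of 21 first-series and 8 of 15 second-series cells and medians of 7.71 and 8.42 among them, and in 4 of 27 saline EGFP- cells. Gad1, its isoenzyme, differed by 1.62 and had a count in 20 of 21 first-series and 12 of 15 second-series cells. Of 16 interneuron markers only these were measured, and Slc32a1, Sst and Vip had no count in any cell of either series.

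Genes of microglia and blood were among the 22 called lower. The 12 with the largest negative differences were Il1a (-3.35), Tyrobp (-3.26), C1qc (-3.24), Hbb-bs (-3.08), Ccl4 (-2.72), Hba-a1 (-2.67), Rps27rt (-2.66), Pmepa1 (-2.52), Ccdc130 (-2.52), Kcnt2 (-2.47), Gad2 (-2.47) and Arrb2 (-2.39). Tyrobp, a microglial signalling adaptor, and C1qc, a complement subunit, each had thinned counts in 2 of 21 first-series and 6 of 15 second-series cells. Il1a and Ccl4, an interleukin and a chemokine, had thinned counts in 1 and 3 of 21 first-series cells and each in 6 of 15 second-series cells. Hbb-bs and Hba-a1, haemoglobin chains, had them in 2 and 4 of 21 first-series cells and in 9 and 8 of 15 second-series cells.

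The summed share of the 18 microglia markers ran from 0.0015% over 0.0163% to 0.0497% in the first series and from 0% over 0.0795% to 5.68% in the second, where 6 cells reached 0.1%. Of these markers 7 were measured, with 2 called lower, 5 negative differences and a median of -1.28; P2ry12, Tmem119 and Trem2 were at 0 in every first-series cell. Without those 6 cells the differences of Il1a, Tyrobp and C1qc were -0.25, -0.37 and -1.20, Ccl4 was at 0.05, and none of these was called lower. Tyrobp and C1qc are among the markers that picked those cells, all of the second series. A smaller difference of these markers was therefore built into the choice. Only 8 of the 22 genes called lower were still called in that setting. Hbb-bs and Hba-a1 were at -3.18 and -3.23 without those cells, and at 0.15 and 0.14 without titles M209 to M216. The 8 measured interferon and MHC class I genes had a median of -0.01, with Irf7 at -1.78 (0.47 without those 6 cells) and none called. Of 14 oligodendrocyte markers 3 were measured, with Trf, transferrin, called lower at -2.29, which turned to 0.22 without those 6 cells. In the KA EGFP+ cells the share of microglia markers went the other way. Its median was 0.0575% and its highest value 2.69% in the first series, against 0.0131% and 0.0352% in the second. The part of microglial and other glial RNA in these values was not tested.

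Other marker lists were sparse. Of 15 astrocyte markers 6 were measured, with 1 called higher and a median of 1.71, and of 12 reactive astrocyte markers 3, with none called and a median of 0.76. Of the oligodendrocyte precursor list Lhfpl3 alone was measured (2.25, not called), and of the endothelial and mural list Bsg alone (1.93, not called). Of 17 immature neuron and progenitor markers 8 were measured and 3 called higher: Tubb3, a neuronal tubulin (5.14), Sox11, a transcription factor (4.01), and Ncam1, an adhesion molecule (3.17). Dcx and Eomes, which define immature neurons and progenitors, were not measured. Of the nuclear-retained RNAs Snhg11 alone was measured, with a difference of 1.72 and medians of 11.86 in the first series and 11.32 in the second among cells with a thinned count.

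A step within the first series appeared in Gapdh and Ppia, which were examined with other housekeeping genes after the values were seen. Gapdh, a glycolytic enzyme with annotated pseudogenes, was the extreme of its list with a called difference of 4.78. It ran from 10.60 over 11.06 to 11.79 in titles M20 to M32 (9 cells), from 3.59 over 5.50 to 10.57 in titles M33 to M48 (12 cells) and from 0 over 3.76 to 7.55 in the second series. Ppia, cyclophilin A, ran from 8.44 over 9.46 to 10.53, from 1.95 over 5.30 to 10.55 and from 0 over 2.85 to 9.63 in these sets. Actb, beta-actin, had medians of 8.44, 8.81 and 7.44 in these sets. Eef1a1, a translation elongation factor, had 9.57, 8.86 and 9.69, and Tpt1, a translationally controlled protein, had 8.41, 7.65 and 4.36, so these 3 genes did not show a step of that size within the first series.

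The 32 measured processed pseudogenes had a median difference of -0.53 (trend-relative -1.95), 13 of them at least 2 below the trend and 0 above, against 1.74 for the 8568 protein-coding genes. Rps27rt, a ribosomal retrogene, ran from 0 over 0.50 to 5.28 in the first series and from 0 over 5.30 to 7.86 in the second. Within the first series it was at most 0.62 in titles M20 to M32. In titles M33 to M48 the cells M39, M42, M47 and M48 were below 0.50 and the rest had at least 2.80. Reads of such genes can be split between copies, and the part of read assignment in these differences was not tested.

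The KA EGFP+ cells gave the same contrast of title series in other libraries, with only 3 cells in the second series. Their median difference over the genes measured in EGFP- cells was 1.14. Across these genes the EGFP+ and EGFP- differences had a Pearson r of 0.13 and a Spearman rho of 0.13, as a description over genes that are not independent. Penk differed by 3.73 in the EGFP+ cells, Sstr2 by 3.33 and Gapdh by 5.70. Syngr3 and Necap1 differed by 0.97 and 1.00, and Slc1a1 and Dab1 by -1.34 and -2.26. Cartpt and Npy differed by 0.99 and -0.26 and Cpne7 by -3.22. Ribosomal protein genes had a median of 3.70 and immediate early genes of -0.50 in EGFP+ cells, against 1.83 and 2.60 in EGFP- cells. Microglia markers had a median of 2.11 in EGFP+ cells, against -1.28 in EGFP- cells. The first-series EGFP+ cells had titles M1 to M27 apart from M38 and M45, whereas the first-series EGFP- cells had titles M20 to M48. The classes thus differ in title run, and the part of title run in these values was not tested. Whether the differences of the EGFP- cells exceed those of the EGFP+ cells was not tested.

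At least 1 Y-linked count was found in 19 of 21 first-series cells and 10 of 15 second-series cells. Kdm5d, a Y-linked demethylase, had thinned counts in 8 of 21 first-series and 0 of 15 second-series cells, and its difference of 2.22 turned to -0.04 among cells with like gene numbers. Eif2s3y had thinned counts in 18 of 21 first-series and 9 of 15 second-series cells. The labels give no sex, and cells without such a count may be cells in which it was not caught.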

How the data were processed

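Each library is the cytosol of 1 granule cell, prepared with Nextera XT per the labels' protocols. Build GRCm38 and the tools STAR, featureCounts, kallisto and Trimmomatic are listed in the submitters' processing notes, with neither version nor role. The authors deposited whole-number counts per gene symbol, for all cells and for those kept by their quality control, and a normalized signal. The deposited signal is the count times 1 factor per cell (0.118 to 6.53 in the 36 cells), whose making is not given in the sources used here, and it served only as an alternative.

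The 22870 genes were used and the 92 spike-in rows, with 1 count in the 36 cells, were left out. CPM was the count divided by the cell's total and multiplied by 1000000, and levels were log2(CPM + 1). Cells were thinned to 1000000 counts without replacement. At 1747042 to 56183007 counts per cell, counting error of pooled values was small. Poisson intervals (95%) cover counting error of reads only, and Clopper-Pearson intervals (95%) cover only the drawing of a limited number of cells. They treat reads and cells as independent, although reads carry no molecular identifiers and cells of a mouse may be alike. Each title series is 1 sample, so nothing was tested.

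Members and lists were chosen with earlier results of these data known. Genes named by rule were the 12 called genes with the largest positive and the 12 with the largest negative difference, a set of preset genes, and the highest and lowest measured member of each list. Other members were chosen after their values were seen. GENCODE M21 gave positions for 22566 gene symbols, and RefSeq promoters were used. Python 3.11.15, numpy 2.4.6, pandas 2.3.3, scipy 1.17.1 and, for TMM factors, edgeR 4.0.16 in R 4.3.3 were used, and scripts were tested on simulated data. Alternatives covered scaling, thinning, centring, pseudocount, filters, cells left out and summed counts.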

Additional observations from a re-analysis of the deposited data

Results flagged for a closer look

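A KA EGFP- cell that the labels call passed (title M25) was outside the quality-passed table and entered no comparison. It had 17928 counts over 610 genes, and 5 of these counts were Penk, the main gene of the comparison. As reads carry no molecular identifiers, these few counts alone do not show whether that cell expressed Penk. The other such cell (title M271) had 1008081 counts over 612 genes and 0 Penk counts. Groups of more than 10 cells were not examined for single outlying values.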

How the results depend on the processing

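The median difference of all measured genes was 1.73. It was 2.33 on the authors' signal, 0.72 with a pseudocount of 10, 3.26 with 0.1, 0.73 with no filter on low genes, 0.63 among cells with like gene numbers, 0.046 as a log2 ratio of summed counts and 0 after centring on the median or the trend. The 1671 genes called higher became 2628 with TMM factors, 446 after median centring, 293 after trend centring, 469 with a pseudocount of 10, 903 with 0.1, 940 when 18 cells needed a count and 361 among cells with like gene numbers. The 22 called lower became 13 with TMM factors, 47 on the authors' signal, 420 after median centring, 355 after trend centring, 4 with a pseudocount of 10, 11 with 0.1, 40 with no filter, 8 when 18 cells needed a count, 47 without microglia-rich cells, 278 among cells with like gene numbers, 100 without titles M209 to M216, 36 without titles M35 to M48 and 308 by summed counts. Of the original 22, 8 were still called without microglia-rich cells, 7 among cells with like gene numbers and 9 without titles M209 to M216. With only cells labelled passed, no check of quality given the displaced labels, 2059 genes were called higher and 21 lower. Of these 21 genes, 9 were from the original 22. With cells whose preceding title was also KA EGFP-, 8 of the original 22 were still called. The difference of median gene numbers, 3267, became 1599.5 among cells with like gene numbers. In the KA EGFP+ cells the median of 1.14 was 1.13 after thinning.

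Signs turned for Ccl4 (0.0486) and Trf (0.2166) without microglia-rich cells, for Cck (0.4315) and Kdm5d (-0.0358) among cells with like gene numbers, for Hbb-bs (0.1517), Hba-a1 (0.1378) and Cck (0.1915) without titles M209 to M216, and for Cck (0.5864) without titles M35 to M48. The causes were not tested. The difference of Penk lay between 5.28 and 10.84 in all settings run. Leaving out title M48 and keeping cells whose preceding title was also KA EGFP- were chosen after seeing the data; they gave 1749 and 1740 genes called higher. No paired analysis was possible because no label gives the mouse of a cell, and no test was made. After thinning to equal counts the median difference was 1.73. The values rest on 21 and 15 cells of unknown mice, and for EGFP+ cells on 3 in the second series.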
